A study of Arabidopsis thaliana with 9 samples.

Results

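The NAC transcription factors of Arabidopsis thaliana rosettes are described here in 3 genotypes. A gene was counted as a NAC gene when the deposited gene table gave its function, in the first entry of that annotation, as "NAC domain containing protein" or "NAC (No Apical Meristem)", and ANAC029 and ORE1, a pair of senescence regulators, were set aside from this list. The wording matched 100 of the 33323 genes of the table, and 99 remained, of which 76 carried the first wording and 23 the second. The annotation does not reach every gene of the family: 12 NAC genes of known role, among them the vessel regulators VND6 and VND7, are annotated in other words and were kept apart.

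NAC proteins bind DNA through a conserved domain at their amino end and carry a variable tail that activates or represses transcription. Some are held at a membrane by a hydrophobic stretch in this tail and reach the nucleus only after release. In leaves the family is known for the control of ageing, of responses to drought, wounding and pathogens, of the boundaries between organs and of the walls of water-conducting cells. ANAC019, ANAC055 and RD26 are known as targets of MYC2, the transcription factor that JAZ proteins hold inactive until the hormone jasmonate triggers their destruction.

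The study compared wild-type Col-0 plants with the lines jazQ and jazD, both in the Col-0 background, although the accession label of jazD carries an unexplained asterisk. As background, the mutated genes of jazQ are JAZ10, JAZ9, JAZ4, JAZ3 and JAZ1, to which jazD adds JAZ13, JAZ7, JAZ6, JAZ5 and JAZ2. Each line is a single combination of alleles. Plants of 23 d were grown on soil at 20 °C under 16 h of light and 8 h of dark, with wild type and mutants in the same trays, and nothing in the labels describes a hormone treatment. Each of the 3 libraries per genotype came from a separate pool of about 20 whole rosettes without roots. Since whole rosettes were sequenced, more RNA per cell and more cells of a type cannot be told apart.

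The 9 libraries held 15370271 to 20730459 estimated reads. Levels are given as CPM, counts scaled to library size, which suit a comparison of libraries, or as TPM, which also correct for transcript length and suit a comparison of genes. JAZ1 was at 23.8 to 26.5 CPM in Col-0, 2.54 to 2.79 CPM in jazQ and 2.05 to 2.69 CPM in jazD. JAZ2 was at 21.1 to 26.9 CPM in Col-0, 29.7 to 47.3 CPM in jazQ and 2.63 to 3.46 CPM in jazD. Both genes followed the labels, while of the 9 tested genes among the 10 mutated in jazD, 3 were lower and 4 higher there, and reads from a mutated gene do not show whether a protein is made. Mesophyll markers were abundant in every library, at a summed 35192 CPM or more. Of 6 root markers, 3 or 4 were at 0 counts in each genotype, and SCR, which leaves also express, made up nearly all of the root sum of 16.5 to 26.6 CPM. Floral markers summed to at most 1.1 CPM in any library.

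MicroRNA miR164 is the best known regulator of the family from outside it, and it pairs with the messengers of several boundary NAC genes. Its mature forms, from the RefSeq annotation of TAIR10.1, are shown with the seed (bases 2 to 8) in capitals, because the seed is common to both forms.
ath-miR164a and ath-miR164b-5p: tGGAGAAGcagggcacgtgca
ath-miR164c-5p: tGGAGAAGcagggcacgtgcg
A search of the 99 messengers for stretches complementary to miR164a, with up to 4 mismatches allowed, found 6 genes. Each had at most 3 mismatches and its site in the coding sequence. The sites are shown 5′ to 3′ on the messenger, with the bases that differ from the exact complement of miR164a in capitals. A T that faces a G of miR164a, a G:U pair in RNA, is counted as such a mismatch.
NAC1 (chr1:20947142-20947162, minus strand): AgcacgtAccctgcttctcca
AT3G12977 (chr3:4145631-4145651, plus strand): AgcaTgtAccctgcttctcca
CUC1 (chr3:5111137-5111157, plus strand): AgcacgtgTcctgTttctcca
CUC2 (chr5:21902301-21902321, minus strand): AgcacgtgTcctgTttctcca
ANAC080 (chr5:2436958-2436978, plus strand): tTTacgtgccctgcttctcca
ANAC100 (chr5:24701687-24701707, minus strand): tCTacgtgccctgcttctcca
The sites of CUC1 and CUC2, which specify the boundary between cotyledons, are identical. ANAC080 and ANAC100 share both mismatch positions. The 3 precursor genes had 0, 1 and 1 counts over all libraries, and these libraries do not measure mature microRNAs.

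Of the 99 NAC genes, 83 had at least 1 count, 16 had none in any library, and 55 passed the filter on low counts and were tested. The largest total of an untested NAC gene was 77 counts over the 9 libraries and the smallest total of a tested one was 63, since the filter looks for counts in several libraries rather than for a sum. Among the untested were the root cap genes FEZ, SMB, BRN1 and BRN2 and the fibre regulators SND1 and NST1. Summed over the family, the level was 529 ± 33.1 TPM in Col-0, 486 ± 26.0 TPM in jazQ and 598 ± 10.8 TPM in jazD (mean ± SD, n = 3). The 3 jazD libraries, at 587 to 608.5 TPM, lay above the highest Col-0 library at 567.5 TPM, and the Col-0 and jazQ libraries overlapped.

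A few genes carried most of this level. VNI2, known as a partner of VND7 and as a regulator of leaf ageing, averaged 80.2 TPM over all libraries and held 14.9% of the family's level. ANAC017, a membrane-tethered protein that signals from mitochondria to the nucleus, averaged 49.8 TPM. ANAC036, whose overexpression is known to dwarf plants, averaged 44.8 TPM. The 10 genes with the highest levels held 66.2% of the family's TPM in wild type, 65.5% in jazQ and 64.8% in jazD. The median of the 83 NAC genes with a count was 1.07 TPM in Col-0, against 6.99 TPM for all genes of the table with a count. ANAC055 stood out from its neighbours in rank by its spread between genotypes, at 0.56 TPM in Col-0, 0.433 TPM in jazQ and 9.28 TPM in jazD.

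**Figure D1:**
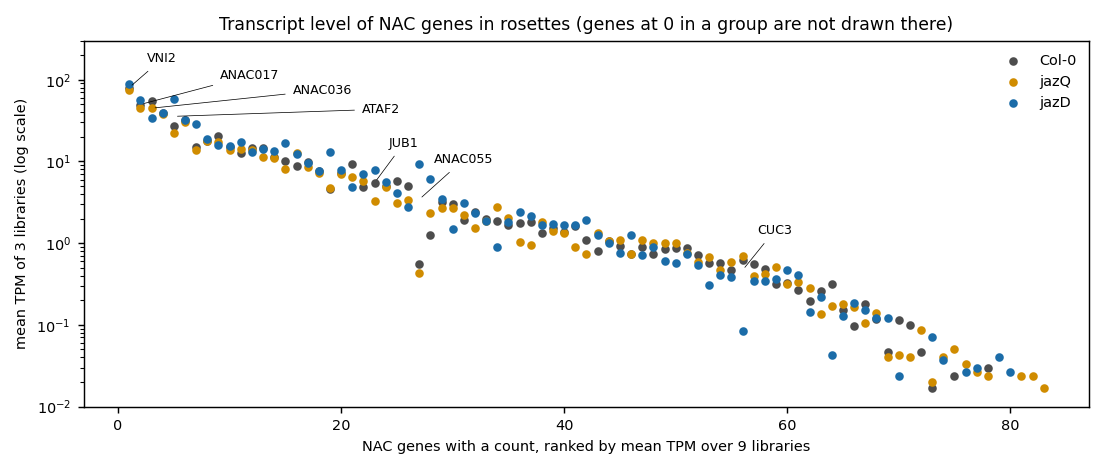
Mean TPM of 3 libraries (log scale) for the 83 NAC genes with a count, ranked by their mean over all 9 libraries, with 1 point per genotype. VNI2, ANAC017 and ANAC036 lead the ranking, and the jazD point of ANAC055 lies far above its Col-0 and jazQ points while that of CUC3 lies below.

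In jazD against Col-0, the edgeR quasi-likelihood test with Benjamini-Hochberg adjustment over all 19405 tested genes called 12 NAC genes higher and 2 lower at an adjusted p under 0.05. That is 25.5% of the 55 tested, where 25.8% of all tested genes were called, a share near that background. By direction, 21.8% of the tested NAC genes were higher and 3.64% lower, beside 13.3% and 12.5% of all tested genes, and this difference in direction was not tested. The median log2 fold change was 0.16 over the tested NAC genes and 0.00 over all tested genes. Among the role lists, the ATAF and ANAC019 clade, with 7 members, held 4 of the 12 higher genes, and its median log2 fold change was 0.98.

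**Figure D2:**
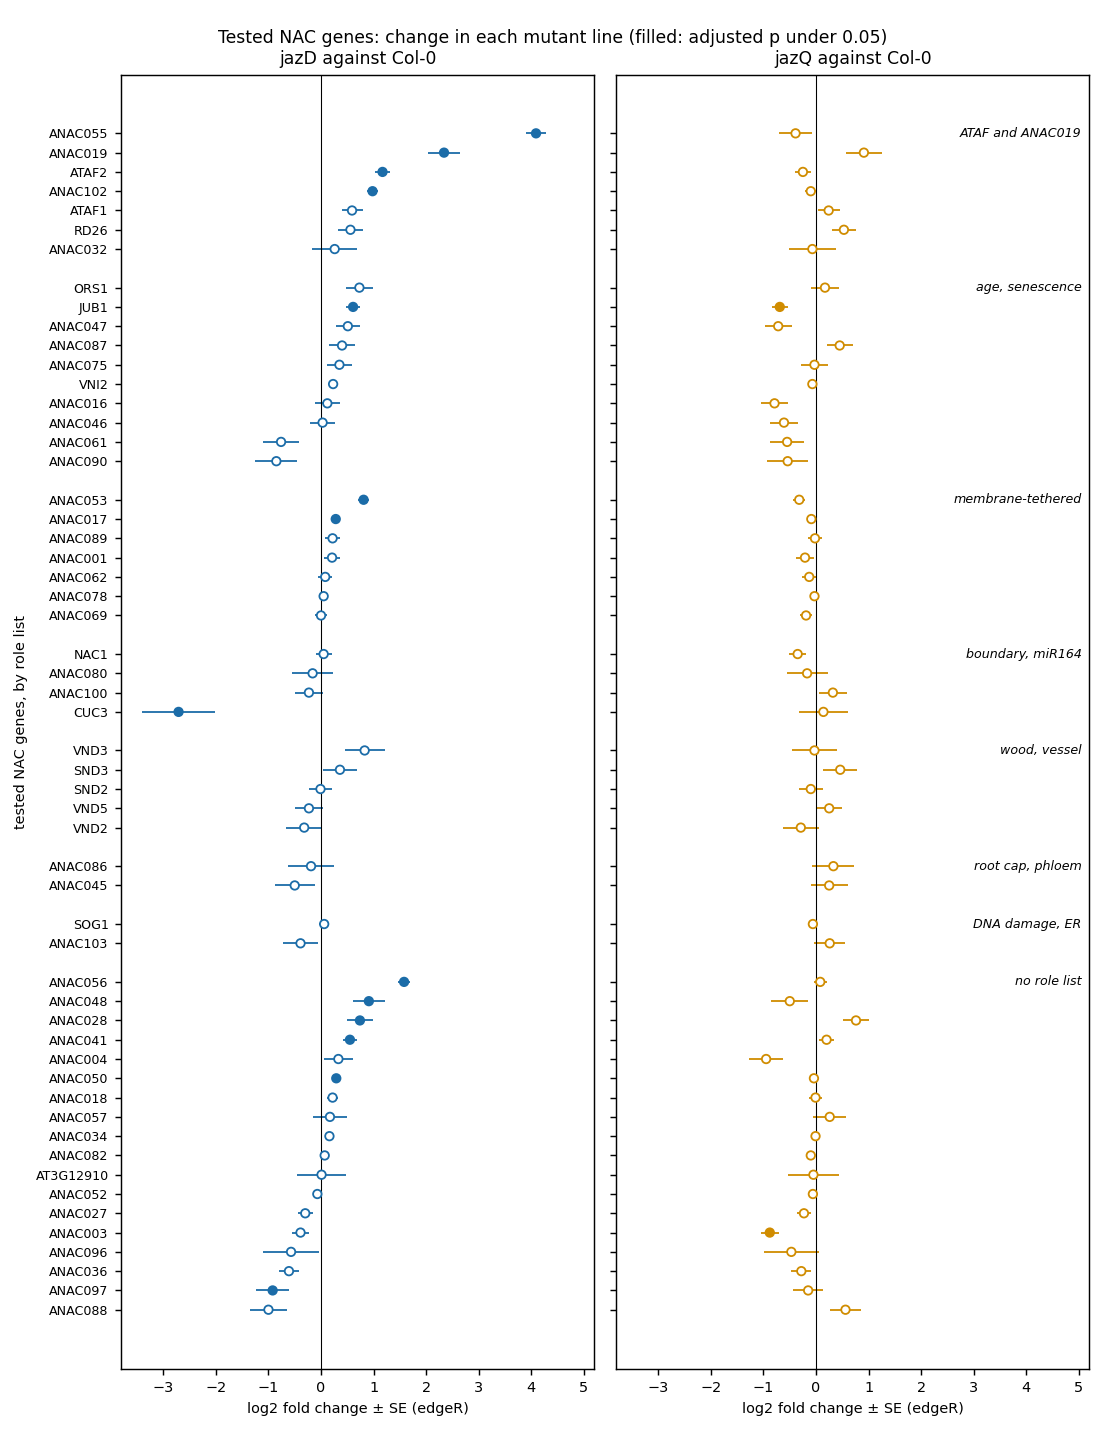
Log2 fold change ± SE (edgeR) of each of the 55 tested NAC genes in jazD against Col-0 (left) and jazQ against Col-0 (right), grouped by role list, with filled points for an adjusted p under 0.05. The 12 filled points to the right of 0 in jazD include ANAC055 at 4.09 and ANAC019 at 2.34, and the 2 filled points in jazQ both lie to the left of 0.

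The largest increases of the family were those of ANAC055 and ANAC019, both of the stress-responsive ATAF and ANAC019 clade. ANAC055, at 0.518, 0.428 and 0.686 CPM in the 3 Col-0 libraries and 0.532, 0.354 and 0.385 CPM in jazQ, reached 8.91, 10.4 and 9.14 CPM in jazD. Every jazD library was far above every other library, and Col-0 and jazQ overlapped. The log2 fold change was 4.09 ± 0.19 (SE, adjusted p = 5.43e-09), a 17.0-fold difference, against Col-0 and 4.48 ± 0.20 (adjusted p = 3.75e-09) against jazQ.

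ANAC019, which acts with ANAC055 downstream of MYC2, was at 0.806, 0.978 and 1.85 CPM in Col-0, 1.46, 2.89 and 2.51 CPM in jazQ and 4.75, 7.13 and 6.89 CPM in jazD. The jazD libraries were again apart from all others, and the jazQ libraries overlapped with Col-0 only through 1 Col-0 library. Its log2 fold change was 2.34 ± 0.31 (adjusted p = 0.000172) in jazD against Col-0, 0.91 ± 0.34 (adjusted p = 0.299) in jazQ against Col-0 and 1.43 ± 0.28 (adjusted p = 0.00252) in jazD against jazQ. RD26, the third member of this branch and known for its induction by drought and abscisic acid, was at 5.81 to 7.42 CPM in Col-0, 7.13 to 11.7 CPM in jazQ and 7.85 to 12.8 CPM in jazD. All jazD values of RD26 lay above those of Col-0, and the difference of 0.56 ± 0.23 did not pass (adjusted p = 0.108). RD26 was called under 1 of 18 alternatives, a replicate block.

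The ATAF branch showed the same split between called and uncalled members. ATAF2, a wound-induced regulator of defence genes, was at 24.1, 31.7 and 20.3 CPM in Col-0, 20.3, 19.3 and 23.9 CPM in jazQ and 59.1, 55.0 and 56.7 CPM in jazD. It rose by 1.17 ± 0.14 (log2, adjusted p = 0.000183) in jazD against Col-0 with no overlap of libraries. ANAC102, known from the response to low oxygen, was at 12.9 to 16.7 CPM in Col-0, 12.5 to 15.5 CPM in jazQ and 28.3 to 30.9 CPM in jazD. It rose by 0.98 ± 0.10 (log2, adjusted p = 1.5e-05). ATAF1, a regulator of abscisic acid synthesis, differed by 0.59 ± 0.20 (adjusted p = 0.0523), just outside the threshold and with no overlap of libraries. It passed under 5 of 18 alternatives, among them DESeq2's Wald test (adjusted p = 0.0446). ANAC032, a stress-induced relative of both, was at 0.979 to 1.53 CPM in Col-0 and 1.36 to 1.87 CPM in jazD, and its groups overlapped.

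Reads of overlapping genes bear on 3 of these members, since the sources used here do not state whether strand was used in counting. Genes on the other strand overlap 22.5% of the exonic bases of ATAF1, 10.3% of those of ATAF2 and 5.4% of those of ANAC102. The partner of ATAF1 in the table was at 3.61 CPM in Col-0 and 4.50 CPM in jazD, a log2 difference of 0.31 ± 0.17 in the direction of ATAF1 that did not pass (adjusted p = 0.202). The partner of ATAF2 was at about 5 CPM in each genotype, with a log2 difference of -0.07 ± 0.14 in jazD against Col-0. The partner of ANAC102 was lower in jazD (-0.60 ± 0.10), opposite to ANAC102.

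**Figure D3:**
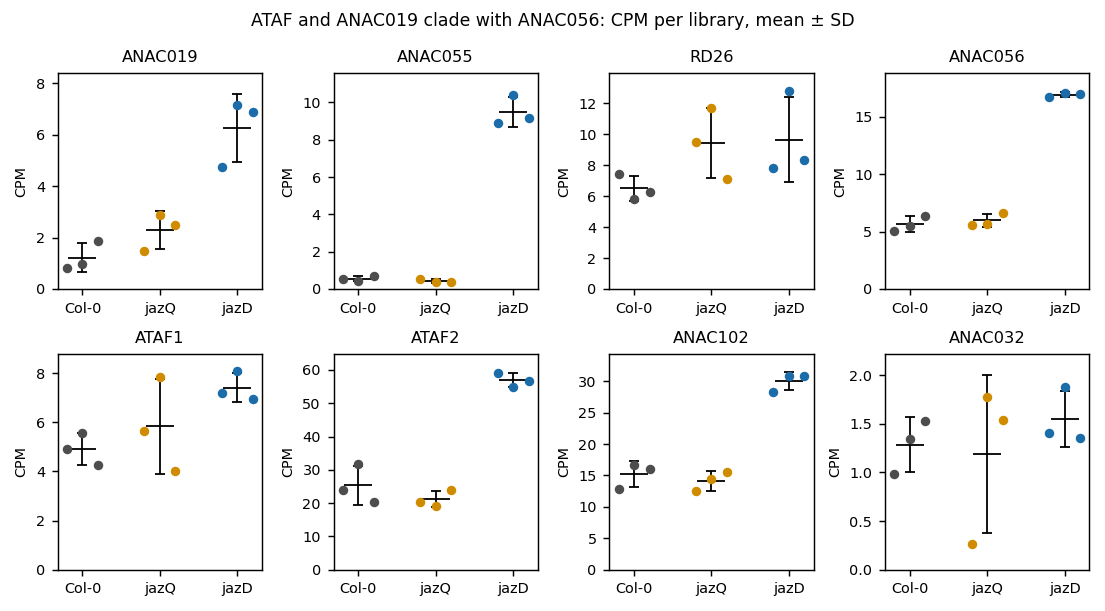
CPM per library for the 7 genes of the ATAF and ANAC019 clade and for ANAC056, with 1 point per library and the mean ± SD of each genotype. The jazD points of ANAC019, ANAC055, ANAC056, ATAF2 and ANAC102 lie above all Col-0 and jazQ points, while those of RD26 and ANAC032 overlap with jazQ.

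Several NAC genes lie side by side on the chromosomes. In the gene table, 13 pairs of NAC genes have no other gene between them, and in 6 pairs both genes were tested. Both genes were called in jazD against Col-0 in 1 of these pairs, a single gene was called in 4, and neither was called in 1. Of all tested genes, 25.8% were called in this comparison. ANAC052 is counted both in the pair with ANAC050 and in the pair with ANAC053, and no excess is read from these counts. A call in one gene and not in its neighbour is no test of the difference between them.

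ANAC055 and ANAC056 form the pair in which both rose, with 7235 bases between them (chr3:5234457-5236196 and chr3:5243432-5245510, plus strand, TAIR10.1). ANAC056, known as NARS1 for its role in seed coat development, was at 5.07, 5.50 and 6.39 CPM in Col-0, 5.59, 5.67 and 6.65 CPM in jazQ and 16.7, 17.1 and 17.0 CPM in jazD. The jazD libraries were nearly 3 times as high as the others, and Col-0 and jazQ overlapped. It rose by 1.58 ± 0.11 (log2, adjusted p = 2.1e-07), the largest called increase outside the ATAF and ANAC019 clade. In Col-0 ANAC056 had the higher level of the pair, 4.54 TPM beside 0.56 TPM for ANAC055, and in jazD the levels were 12.9 and 9.28 TPM.

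ANAC019 and ANAC018 repeat this arrangement on another chromosome with 6333 bases between them (chr1:19696923-19698482 and chr1:19688708-19690589, minus strand). ANAC018, known as NARS2 and a partner of ANAC056 in seed coats, was at 7.52 to 7.71 CPM in Col-0, 6.80 to 8.24 CPM in jazQ and 7.78 to 9.54 CPM in jazD. Its difference of 0.22 ± 0.11 in jazD did not pass (adjusted p = 0.175), whereas its neighbour ANAC019 was called.

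The 300 bases before the annotated gene starts of ANAC019 and ANAC055 are shown because these are the NAC genes with the largest increases in jazD. Capitals mark the G-box CACGTG, to which MYC2 is known to bind, and its near relative CACATG and the GCC box GCCGCC were searched on both strands as well.
ANAC019 (chr1:19698483-19698782, minus strand, TAIR10.1): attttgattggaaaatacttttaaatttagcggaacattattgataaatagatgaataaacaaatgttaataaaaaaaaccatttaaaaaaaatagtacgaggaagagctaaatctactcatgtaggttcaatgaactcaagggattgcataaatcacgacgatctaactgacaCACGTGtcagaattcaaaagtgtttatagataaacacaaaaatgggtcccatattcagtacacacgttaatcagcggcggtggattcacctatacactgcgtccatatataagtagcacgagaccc
ANAC055 (chr3:5234157-5234456, plus strand, TAIR10.1): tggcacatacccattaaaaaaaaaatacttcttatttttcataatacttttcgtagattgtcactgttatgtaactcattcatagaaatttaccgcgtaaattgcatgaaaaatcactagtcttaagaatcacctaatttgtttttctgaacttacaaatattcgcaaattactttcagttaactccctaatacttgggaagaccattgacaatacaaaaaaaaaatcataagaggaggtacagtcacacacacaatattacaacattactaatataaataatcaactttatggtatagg
The window of ANAC019 held 1 G-box, which begins 126 bases before the gene start. The windows of ANAC055 and of RD26 held none of the 3 motifs. A G-box was present in 6.44% of the 32834 windows of this length searched, in 8.0% of those of tested genes and in 1 of the 12 NAC genes that rose in jazD. None of these 12 had a CACATG or GCCGCC match, which occurred in 12.8% and 2.36% of all windows. Windows of 300 bases leave out more distant sequence, and no match says nothing of binding elsewhere.

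A run of 3 NAC genes on chromosome 3, ANAC050, ANAC052 and ANAC053, is packed with 129 and 14 bases between them. ANAC050 and ANAC052 are known as partners of the histone demethylase JMJ14, and ANAC053 is a membrane-tethered factor linked to the response to proteasome stress. ANAC053 was at 15.3, 18.5 and 13.9 CPM in Col-0, 12.04, 13.2 and 13.0 CPM in jazQ and 28.0, 25.7 and 29.8 CPM in jazD. The jazD libraries lay above all others and the jazQ libraries below all others. ANAC053 rose by 0.81 ± 0.10 (log2, adjusted p = 6.59e-05) in jazD against Col-0. The middle gene ANAC052 stayed within 17.8 to 20.9 CPM in all libraries, with a difference of -0.07 ± 0.08. ANAC050 rose by 0.29 ± 0.08 (adjusted p = 0.0132), with 16.4 to 18.2 CPM in Col-0 and 20.0 to 22.3 CPM in jazD. That call was lost when Col-0 replicate 1 or jazD replicate 2 was left out and with both TPM fits.

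ANAC016 and ANAC017 lie with 117 bases between them. ANAC017 was at 77.6, 85.4 and 81.9 CPM in Col-0, 74.5, 73.7 and 81.1 CPM in jazQ and 95.9, 103.2 and 97.6 CPM in jazD, and it rose by 0.28 ± 0.06 (log2, adjusted p = 0.00553). ANAC017 and ANAC053 were the 2 called members of the 7 tested genes on the membrane-tethered list, which leaves out genes placed on another list. That is 28.6%, near the 25.8% of all tested genes called in jazD against Col-0. Both were also higher in jazD than in jazQ (0.37 ± 0.06 and 1.13 ± 0.10). ANAC078, the close relative of ANAC053 with which it shares the proteasome response, was at 63.3 to 70.3 CPM over all libraries and differed by 0.05 ± 0.06. Among the NAC genes annotated in other words, the tethered factor NTL9 was called higher (0.20 ± 0.07, adjusted p = 0.0441), the only edgeR call among 9 tested. Of these 9, limma-voom called 1 higher and DESeq2's Wald test 0.

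**Figure D4:**
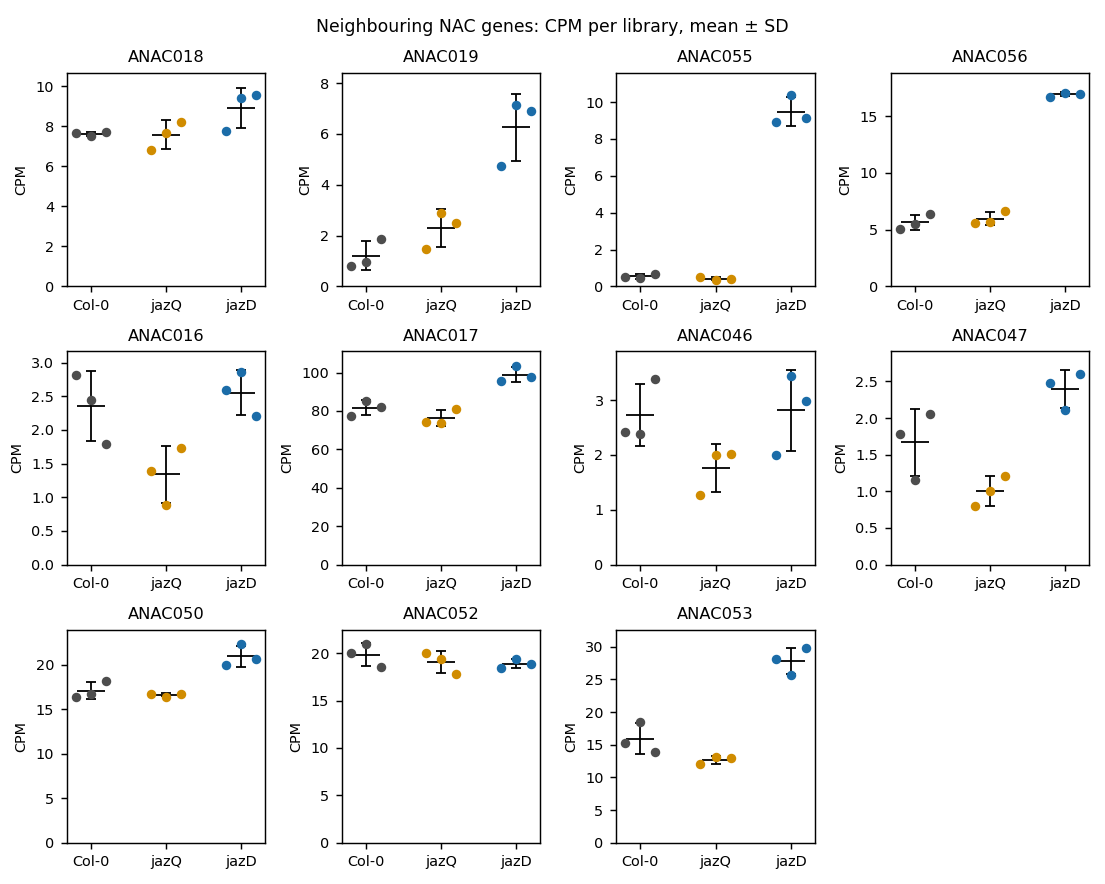
CPM per library, with mean ± SD, for the NAC genes that lie side by side and were tested: ANAC018 and ANAC019, ANAC055 and ANAC056, ANAC016 and ANAC017, ANAC046 and ANAC047, and the run ANAC050, ANAC052 and ANAC053. ANAC055 and ANAC056 both rose in jazD, whereas ANAC018 and ANAC052 were not called beside called neighbours.

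Each NAC gene was placed on a single role list, so the ageing and senescence list does not hold every NAC gene with a part in leaf ageing. Its 10 genes were all tested, and edgeR called 1 of them, JUB1, in jazD against Col-0, beside 25.8% of all tested genes. DESeq2's Wald test called 1 higher and 1 lower, and limma-voom 2 higher. JUB1 lengthens leaf life in Arabidopsis and represses growth hormone genes. It was at 3.45, 3.97 and 3.27 CPM in Col-0, 2.26, 2.07 and 2.26 CPM in jazQ and 5.19, 5.44 and 5.70 CPM in jazD. The genotypes did not overlap: jazQ was lowest, Col-0 in the middle and jazD highest. JUB1 rose by 0.61 ± 0.13 (log2, adjusted p = 0.00455) in jazD and fell by 0.69 ± 0.15 (adjusted p = 0.0424) in jazQ, both against the same Col-0 libraries. Between the mutants the difference was 1.304 ± 0.14 (adjusted p = 1.93e-05). The call in jazQ was lost in 11 of 17 alternatives, including DESeq2's Wald test, limma-voom and every omission of a library except Col-0 replicate 3, with values from -0.753 to -0.573.

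In jazD against jazQ 4 of the 10 ageing genes were higher, where 15.0% of all tested genes were. Besides JUB1 they were ANAC047, known to bend petioles upward in flooded leaves (1.23 ± 0.25, adjusted p = 0.00258), ANAC016, a promoter of senescence (0.91 ± 0.26, adjusted p = 0.0178), and VNI2 (0.29 ± 0.09, adjusted p = 0.0198). ANAC047 was at 1.78, 1.16 and 2.06 CPM in Col-0, 0.798, 1.003 and 1.204 CPM in jazQ and 2.49, 2.11 and 2.60 CPM in jazD. The jazD libraries lay above both other genotypes, and jazQ overlapped with Col-0 through 1 Col-0 library. ANAC016 was at 1.795 to 2.82 CPM in Col-0, 0.885 to 1.73 CPM in jazQ and 2.20 to 2.87 CPM in jazD. It differed by 0.12 ± 0.24 in jazD against Col-0 (adjusted p = 0.757) and by -0.79 ± 0.26 in jazQ against Col-0 (adjusted p = 0.215). Over the 10 genes the median log2 fold change in jazQ against Col-0 was -0.55, beside -0.01 over all tested genes. The calls of ANAC016 and VNI2 each depended on single libraries: both were lost without jazQ replicate 2 or jazD replicate 1, that of ANAC016 also without jazD replicate 2, and that of VNI2 also without jazQ replicate 1. With both TPM fits the call of VNI2 was lost as well.

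The remaining genes of the list did not pass in the main edgeR fit in any comparison. ORS1, a close relative of ORE1 that speeds senescence, was at 1.15 to 2.64 CPM in Col-0 and 3.19 to 3.73 CPM in jazD (0.73 ± 0.26, adjusted p = 0.0518). It was called under 6 of 17 alternatives, among them limma-voom (adjusted p = 0.0457) and edgeR without Col-0 replicate 2 or 3. ANAC046, a promoter of chlorophyll breakdown, overlapped between Col-0 and jazD (0.03 ± 0.24). ANAC075 and ANAC087, the latter also known from cell death in the root cap, gave 0.35 ± 0.24 and 0.40 ± 0.25. ANAC090 and ANAC061, of which ANAC090 is known to delay ageing, had lower values in jazD (-0.85 ± 0.40 and -0.76 ± 0.34). ANAC090 passed under 3 of 17 alternatives, among them DESeq2's Wald test (adjusted p = 0.049), and ANAC061 under 1 of 17, without Col-0 replicate 3. Both varied widely between Col-0 libraries, from 3.43 to 8.80 CPM for ANAC090 and from 1.27 to 3.91 CPM for ANAC061, and the jazD libraries overlapped with Col-0.

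**Figure D5:**
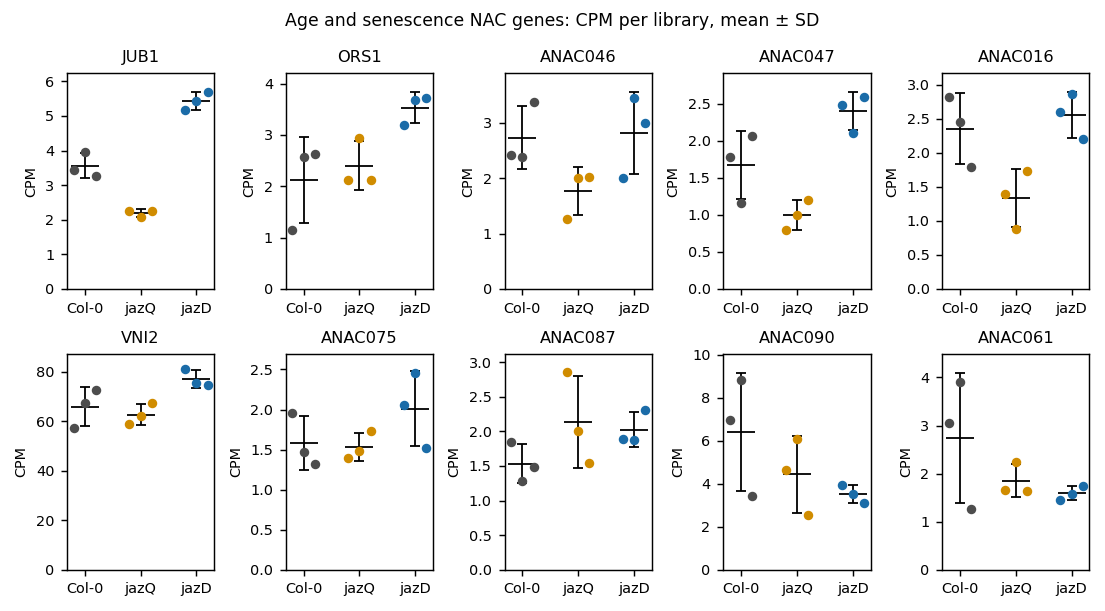
CPM per library for the 10 NAC genes of the ageing and senescence list, with 1 point per library and the mean ± SD of each genotype. The 3 genotypes of JUB1 are separate, with jazQ lowest and jazD highest, whereas the genotypes of ANAC046 and ANAC075 overlap.

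The boundary list holds 6 NAC genes, of which 4 were tested. CUC3, which specifies organ boundaries and is the one CUC gene without a miR164 site in this search, was called lower in jazD. It had 28 counts over the 3 Col-0 libraries, 31 over those of jazQ and 4 over those of jazD. The Col-0 libraries were at 0.806, 0.245 and 0.528 CPM, those of jazQ at 0.399, 0.708 and 0.626 CPM and those of jazD at 0.108, 0 and 0.113 CPM, with no overlap of jazD with the others. The log2 fold change was -2.71 ± 0.69 (adjusted p = 0.0116) against Col-0 and -2.85 ± 0.68 (adjusted p = 0.00698) against jazQ. The first of these calls was lost without Col-0 replicate 1 (-2.29 ± 0.77, adjusted p = 0.0552). In both comparisons CUC3 failed the filter, and so was not tested, when only the groups compared were fitted. It also failed the filter of at least 5 CPM.

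The 3 tested NAC genes with a miR164 site had 0 calls in every comparison with edgeR, DESeq2 and limma-voom. In jazD against Col-0 edgeR called 25.8% of all tested genes. At an unadjusted p under 0.05 it gave 1 of the 3 with a site, in jazD against jazQ. NAC1, known from lateral root formation and the best measured of them, was at 14.3 to 16.1 CPM in Col-0, 10.11 to 15.5 CPM in jazQ and 14.5 to 18.5 CPM in jazD. Genes on the other strand overlap 36.7% of its exonic bases. ANAC080 and ANAC100 stayed near 1 CPM, with differences of -0.16 ± 0.39 and -0.23 ± 0.27 in jazD against Col-0. CUC1, CUC2 and AT3G12977 had too few reads for the test, with 18, 12 and 11 counts in Col-0 and 14, 20 and 10 in jazD.

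Outside the role lists stood 50 NAC genes, of which 18 were tested. In jazD against Col-0, 5 were higher and 1 was lower, beside 25.8% of all tested genes called, and DESeq2's Wald test called 3 higher and 1 lower. ANAC056 and ANAC050 are described above. ANAC041 was at 8.75 to 10.9 CPM in Col-0 and 12.6 to 17.1 CPM in jazD (0.55 ± 0.14, adjusted p = 0.0147), a call lost without Col-0 replicate 1 or jazD replicate 1. ANAC028 was at 1.61, 1.16 and 1.11 CPM in Col-0, 1.93, 2.18 and 2.41 CPM in jazQ and 1.78, 1.93 and 2.77 CPM in jazD. Both mutants of ANAC028 lay above Col-0, by 0.74 ± 0.24 in jazD (adjusted p = 0.0388) and by 0.76 ± 0.24 in jazQ (adjusted p = 0.195), and only the former passed. ANAC048 differed by 0.91 ± 0.30 (adjusted p = 0.0406), with 1 jazD library inside the Col-0 range.

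ANAC097 was the second NAC gene called lower in jazD, at 1.496, 2.02 and 1.21 CPM in Col-0, 1.40, 1.77 and 1.11 CPM in jazQ and 0.864, 1.05 and 0.565 CPM in jazD (-0.92 ± 0.31, adjusted p = 0.0441). It lies in a stretch of chromosome 5 between AT5G44490 and AT5G55790 that contains 10 genes nearly silent in jazD alone and in which 37.5% of 863 tested genes were called, against 25.3% outside. The borders of the stretch are the outermost of these 10 genes, all called in jazD against Col-0, and only chromosome 5 was searched. The share inside is therefore not independent of how the stretch was drawn. The part of this stretch in the result for ANAC097 was not tested. The calls of ANAC028, ANAC048 and ANAC097 were each lost on leaving out single libraries. For ANAC028 these were replicates 2 and 3 of Col-0 and of jazD. For ANAC048 they were Col-0 replicates 1 and 3 and jazD replicates 1 and 2, and for ANAC097 Col-0 replicates 1 and 2 and jazD replicates 1 and 3. All 3 calls were also lost with DESeq2's Wald test, that of ANAC097 with limma-voom, and that of ANAC028 with both TPM fits and when only the groups compared were fitted. That of ANAC048 was lost with log2(TPM + 0.1). ANAC036, one of the most abundant NAC genes, was at 41.3, 52.9 and 28.4 CPM in Col-0 and 26.5, 26.3 and 27.4 CPM in jazD, and the difference of -0.61 ± 0.19 did not pass (adjusted p = 0.0504). It was called lower under 6 of 18 alternatives, among them DESeq2's Wald test (adjusted p = 0.00279), limma-voom (adjusted p = 0.0367) and both TPM fits.

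NAC genes of wood and vessels, of the root cap and phloem, and of DNA damage and endoplasmic reticulum stress gave 0 calls among 9 tested in every comparison, with edgeR, DESeq2's Wald test and limma-voom alike. Of all tested genes, edgeR called 25.8% in jazD against Col-0, 1.27% in jazQ against Col-0 and 28.8% in jazD against jazQ. At an unadjusted p under 0.05 edgeR gave 1 of these 9 in each comparison with jazD and 0 in jazQ against Col-0. The 5 tested wood and vessel genes, VND2, VND3, VND5, SND2 and SND3, had a median log2 difference of -0.01 in jazD against Col-0. Their levels were low, from 0.543 to 1.99 TPM. Vessel markers summed to 82.4 to 90.3 CPM in Col-0, 93.3 to 105.9 CPM in jazQ and 76.4 to 82.3 CPM in jazD. SOG1, the central regulator of the response to DNA breaks, stayed within 10.3 to 12.6 CPM in all libraries.

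In jazQ against Col-0 the test called 0 NAC genes higher and 2 lower, 3.64% of the 55 tested, where 1.27% of all tested genes were called (0.861% higher and 0.412% lower). With 55 genes a pair of calls is a small count and no more is read from it. No NAC gene was called higher by DESeq2's Wald test or by limma-voom either, and at an unadjusted p under 0.05 edgeR gave 3 higher and 7 lower. The lower genes were JUB1 and ANAC003. ANAC003, named after its values were seen, was at 6.62, 6.66 and 4.59 CPM in Col-0, 3.46, 2.66 and 3.52 CPM in jazQ and 4.86, 4.39 and 4.30 CPM in jazD. The jazQ libraries lay below all others, and the log2 fold change was -0.88 ± 0.17 (adjusted p = 0.0234). The call of ANAC003 was lost with limma-voom and without Col-0 replicate 1, Col-0 replicate 2 or jazQ replicate 2.

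Between the mutants, 14 NAC genes were higher in jazD than in jazQ and 2 lower, 29.1% of the tested, where 28.8% of all tested genes were called (15.0% higher and 13.8% lower). Of the 14 genes called in jazD against Col-0, 11 were called in the same direction here, and both comparisons use the same jazD libraries. The 16 called genes had no overlap between the jazD and jazQ libraries. The share over all called genes was not counted, so nothing is read from this. ANAC004 and ANAC088, named after their values were seen, were in edgeR called here alone, and ANAC088 was also called in jazD against Col-0 with limma-voom and with both TPM fits. ANAC004 was at 1.467 to 1.496 CPM in Col-0, 0.472 to 1.197 CPM in jazQ and 1.58 to 2.37 CPM in jazD (1.27 ± 0.31 against jazQ, adjusted p = 0.00759). ANAC088 was at 0.489 to 0.739 CPM in Col-0, 0.819 to 0.946 CPM in jazQ and 0.270 to 0.351 CPM in jazD (-1.55 ± 0.33 against jazQ, adjusted p = 0.00355).

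Genes that NAC proteins are known to act on in Arabidopsis were read as a further list of 32, of which 27 were tested. In jazD against Col-0 10 were higher and 3 lower, beside 13.3% higher and 12.5% lower of all tested genes, and their median log2 fold change was -0.04. The list was assembled with earlier results known, and no excess is read from its count. For chlorophyll breakdown and senescence, targets of ANAC019, ANAC016 and ANAC046 among others, edgeR and limma-voom called 5 of 6 tested genes higher and none lower, and DESeq2's Wald test 3 of 6. PPH, which removes the phytol chain of chlorophyll, was at 47.2, 48.4 and 52.3 CPM in Col-0, 52.3, 58.1 and 55.4 CPM in jazQ and 86.0, 86.4 and 90.6 CPM in jazD. It rose by 0.83 ± 0.06 (log2, adjusted p = 6.85e-07), and the jazD libraries were apart from all others. NYE1, which removes magnesium from chlorophyll, rose by 0.32 ± 0.08 (adjusted p = 0.00868).

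The salicylate genes that ANAC019, ANAC055 and RD26 are known to control differed from each other. UGT74F1, which attaches glucose to salicylate, was at 0.422 to 0.748 CPM in Col-0, 0.798 to 1.36 CPM in jazQ and 2.51 to 2.98 CPM in jazD and rose by 2.15 ± 0.26 (log2, adjusted p = 5.3e-05). BSMT1, which methylates salicylate, was at 0.0576, 0 and 0.264 CPM in Col-0 and 1.19, 1.29 and 1.52 CPM in jazD. Its log2 fold change of 3.47 ± 0.74 (adjusted p = 0.00546) rests on few Col-0 reads and became 5.19 ± 1.01 without Col-0 replicate 3. ICS1, the salicylate synthesis gene that these NAC proteins are known to repress, gave -0.36 ± 0.16 and did not pass (adjusted p = 0.144).

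All 4 genes listed as JUB1 targets were called in jazD against Col-0, 2 in each direction, by edgeR, DESeq2 and limma-voom, beside 25.8% of all tested genes in edgeR. GA3OX1, which completes active gibberellins and is known to be repressed by JUB1, was at 3.64 to 4.49 CPM in Col-0, 3.01 to 4.32 CPM in jazQ and 1.23 to 2.03 CPM in jazD (-1.45 ± 0.22, adjusted p = 0.000285). DWF4, a brassinosteroid synthesis gene repressed by JUB1, fell by 0.50 ± 0.10 (log2, adjusted p = 0.00258). DREB2A, a drought and heat regulator that JUB1 activates, rose by 0.92 ± 0.21 (adjusted p = 0.00688), and PAD3, which makes the defence compound camalexin, rose by 2.00 ± 0.31 (adjusted p = 0.00345). DREB2A and PAD3 were named after their values were seen. In jazQ against Col-0, where JUB1 was lower, 0 of the 4 were called by edgeR, DESeq2 or limma-voom, and 1 had an unadjusted p under 0.05 in edgeR.

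The remaining target lists held 2 calls in jazD against Col-0, AOX1A and RD29A. AOX1A, the alternative oxidase that ANAC017 induces, was at 42.2 ± 6.81 CPM in Col-0, 40.3 ± 5.38 CPM in jazQ and 56.1 ± 5.91 CPM in jazD (mean ± SD, n = 3). Its difference of 0.41 ± 0.13 passed narrowly (adjusted p = 0.0418), and the call was lost in 9 of 18 alternatives, among them the omission of Col-0 replicates 1 and 3, of jazQ replicate 2 and of each jazD library. UPOX, a second gene of the mitochondrial response, overlapped between genotypes (-0.07 ± 0.20). RD29A, a cold and drought gene listed under VNI2, fell by 1.39 ± 0.30 (log2, adjusted p = 0.0159), and it lies in the chromosome 5 stretch described for ANAC097. COR15A, the other VNI2 target, gave -0.20 ± 0.16. The 8 secondary wall genes had 0 calls with edgeR, DESeq2 and limma-voom, beside 25.8% of all tested genes called in edgeR. At an unadjusted p under 0.05 edgeR gave 0 of the 8. In jazD against jazQ edgeR called 4 of them lower, where 13.8% of all tested genes were. CESA7 was among these 4 (-0.49 ± 0.12, adjusted p = 0.00918). BRCA1, a DNA repair gene under SOG1, differed by -0.10 ± 0.10.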

How the data were processed

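Per gene, the authors deposited expected counts in one table and TPM in another. RSEM 1.2.25 and the build TAIR10 are named in the submitters' processing notes. The aligner and strand setting were not given in the sources used here. Expected counts were rounded to whole numbers, genes were filtered with edgeR's filterByExpr (minimum count 10), and edgeR 4.0.16 was used with TMM scaling and a quasi-likelihood fit over all 9 libraries, p-values being adjusted by Benjamini-Hochberg over 19405 genes. SE are those of the log2 fold change. Library totals were 15370271 to 20730459. The fit was tested on simulated data in which 200 genes were changed. The deposited TPM served to compare genes and, as log2(TPM + 1), in limma 3.58.1. Further alternatives were DESeq2 1.42.0, limma-voom, other filters, other sets of samples, a replicate block and each library left out. Sequences and gene positions came from RefSeq TAIR10.1, in which all 99 genes were found. Protein sequences were not analysed here.

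Genes were named by rule: all members of the ATAF and ANAC019 clade and of the ageing list, from other lists the called members, at most 6 per list with the smallest p, the 3 highest in TPM, and 2 genes per target list. ANAC018, ANAC052, ANAC078, ANAC080, ANAC100, NAC1, SOG1, NTL9 and ICS1 were named outside this rule, with their values seen. One target gene is not reported here, nor counted in its list. Members and lists were chosen with earlier results of these data known.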

Additional observations from a re-analysis of the deposited data

How the results depend on the processing

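Of 47 called single-gene results, 35 kept their direction and call under every alternative in which the gene was tested, and 0 reversed. The 14 calls of jazD against Col-0 became 8 with a mean of at least 5 CPM (7 higher, 1 lower), where only 22 NAC genes were tested, and 9 to 18 when 1 library was left out, 9 without Col-0 replicate 1 and 18 without Col-0 replicate 3. The 12 higher became 9 to 14 and the 2 lower 0 to 6 without a library, and 4 were lower with log2(TPM + 1) and with log2(TPM + 0.1). ANAC036 and ANAC088 were gained in both TPM fits. The 2 calls of jazQ against Col-0, both lower, became 1 with DESeq2's Wald test, 0 with limma-voom, 0 with at least 5 CPM, 0 when only the groups compared were fitted and 0 to 3 without a library. The 16 calls of jazD against jazQ became 7 with at least 5 CPM (7 higher, 0 lower) and 15 to 19 without a library. The cause of the changes without a lower number of tested genes was not tested.

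Uncalled differences that changed sign in jazD against Col-0 were those of ANAC016 (-0.047 to 0.275 without a library), ANAC046 (-0.03 with log2(TPM + 1), -0.045 with log2(TPM + 0.1), -0.137 to 0.232 without a library) and UPOX (-0.295 to 0.041). The deviations of same-numbered libraries correlated at 0.015 to 0.306, always above 0. Among the other genotypes, all 9 libraries lay closest to a library of their own number. This is a hint from the data and not the design, since the labels tie no number to a shared batch. The main fit held no such block. With a replicate block, 19 NAC genes were called in jazD against Col-0, 2 in jazQ against Col-0 and 22 in jazD against jazQ, with no call lost; in jazD against Col-0 it gained ANAC090, ATAF1, ORS1, RD26 (adjusted p = 0.0401) and VNI2. Low counts limit CUC3, BSMT1 and the 44 untested NAC genes.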
